A study of Mus musculus with 8 samples.

Results

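Metallothionein genes were followed through 8 RNA-seq libraries of mouse corpus callosum. The group holds 5 genes, chosen by symbol: the brain metallothioneins *Mt1*, *Mt2* and *Mt3*, the regulator *Mtf1* and the zinc exporter *Slc30a1*. All 5 are among the 25239 genes of the deposited table, and all 5 passed the filter on low values that left 18123 genes for testing.

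Metallothioneins are small, cysteine-rich proteins that bind zinc and copper and take up reactive oxygen species. *Mt1* and *Mt2* are expressed in many tissues and are induced by metals, glucocorticoids and inflammatory cytokines, and in the brain they are best known from astrocytes. *Mt3* is the form typical of the brain and responds less to metals. *Mtf1* encodes the zinc-sensing transcription factor that binds metal response elements in the promoters of *Mt1*, *Mt2* and *Slc30a1*, and *Slc30a1* encodes ZnT1, the transporter that carries zinc out of the cell.

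The study placed microcoils on both common carotid arteries of mice (bilateral common carotid artery stenosis, BCAS), a model of chronic cerebral hypoperfusion, or performed the same operation without coils (sham), and asked what the loss of the cation channel TRPA1 changes in white matter. The strain was C57BL/6 throughout, and per the study's methods the mice were males of 8 to 12 weeks. Libraries carried the genotype label Wild type (WT) or Trpa1 -/- (TRPA1-KO), the latter a line that lacks the channel in the whole body and not in 1 cell type. Each label had 1 sham library from day 14 and 1 BCAS library from each of days 7, 10 and 14, so that 3 days served as the replicates of a BCAS group and 2 sham libraries, 1 of each label, as the controls. The corpus callosum was dissected whole, so every level is that of mixed cells. In such bulk RNA, fewer cells of a type and less RNA per cell cannot be told apart.

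*Mt1*, *Mt2*, *Mt3* and the skin form *Mt4* lie side by side on the plus strand of chromosome 8, within 43131 bases (GRCm38, GENCODE M21). *Mt3* spans chr8:94152607-94154146, *Mt2* chr8:94172664-94173568 and *Mt1* chr8:94179082-94180327, with 18518 bases between *Mt3* and *Mt2* and 5514 bases between *Mt2* and *Mt1*. *Slc30a1* lies at chr1:191906767-191913247 and *Mtf1* at chr4:124802104-124849800, both on the plus strand. No stretch of 50 bases in the principal transcript of any of the 5 genes occurred in the same sense in another gene, so reads of the 3 neighbouring metallothioneins can be told apart. Genes on the opposite strand overlap *Mt2* (Gm45774, which shares 210 of 462 such stretches in antisense), *Mtf1* (1110065P20Rik, 672 of 7582) and *Slc30a1* (1700034H15Rik, 420 of 5195). The strand setting of the authors' counting is not given in the sources used here, so without strand such reads cannot be told apart.

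*Mt1* and *Mt2* turned out to vary together over the libraries while *Mt3* did not follow them, and the 250 bases before the transcription start that RefSeq gives for each (GRCm38.p6, plus strand, 5′ to 3′) are shown to let their sequences be compared, with *Slc30a1* as another gene known to be controlled by MTF1. Capitals mark the core of the metal response element, spelled TGCACNC or TGCGCNC, found on either strand. The windows are chr8:94178839-94179088 for *Mt1*, chr8:94172368-94172617 for *Mt2*, chr8:94152357-94152606 for *Mt3* and chr1:191906531-191906780 for *Slc30a1*.

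*Mt1*: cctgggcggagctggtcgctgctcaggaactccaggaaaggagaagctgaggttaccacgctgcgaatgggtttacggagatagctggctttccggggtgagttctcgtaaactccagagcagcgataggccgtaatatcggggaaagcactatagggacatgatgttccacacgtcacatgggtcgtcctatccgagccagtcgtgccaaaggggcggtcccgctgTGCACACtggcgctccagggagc
*Mt2*: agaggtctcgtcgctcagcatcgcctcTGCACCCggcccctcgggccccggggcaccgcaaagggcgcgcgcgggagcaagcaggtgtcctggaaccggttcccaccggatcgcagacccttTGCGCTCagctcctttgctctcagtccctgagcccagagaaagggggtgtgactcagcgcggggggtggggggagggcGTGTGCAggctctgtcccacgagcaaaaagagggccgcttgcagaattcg
*Mt3*: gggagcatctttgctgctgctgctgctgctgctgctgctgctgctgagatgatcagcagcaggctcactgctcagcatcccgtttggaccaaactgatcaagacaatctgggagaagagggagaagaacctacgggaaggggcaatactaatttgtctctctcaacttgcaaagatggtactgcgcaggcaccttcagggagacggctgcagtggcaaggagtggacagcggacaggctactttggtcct
*Slc30a1*: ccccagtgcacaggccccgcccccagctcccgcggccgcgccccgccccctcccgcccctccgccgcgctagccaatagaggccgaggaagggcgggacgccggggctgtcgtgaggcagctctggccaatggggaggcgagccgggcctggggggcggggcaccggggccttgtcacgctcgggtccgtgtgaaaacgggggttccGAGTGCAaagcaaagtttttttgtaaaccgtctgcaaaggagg

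The 250 bases held 3 cores at *Mt2*, 1 at *Mt1*, 1 at *Slc30a1*, 0 at *Mt3* and 0 at *Mtf1*. At least 1 core was present in 21.4% and at least 3 cores in 1.26% of 32851 windows of the same length, which cover all RefSeq starts in the table. With the first 50 bases after the start included, the counts were 4 at *Mt2*, 3 at *Mt1*, 2 at *Slc30a1*, 1 at *Mt3* and 0 at *Mtf1*. Of all windows of 300 bases, 25.7% held at least 1 core, 7.11% at least 2, 1.97% at least 3 and 0.517% at least 4. A core is a run of letters and not a bound site, and the count depends on the start chosen: the RefSeq start lies 46 bases before the GENCODE start at *Mt2*, 7 bases after it at *Mt1* and 445 bases after it at *Mtf1*. The cores at *Mt1* lie at -23, 2 and 20 bases from its RefSeq start. Bases beyond the first 50 after the start were not searched, so the counts do not rank whole promoters.

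**Figure D1:**
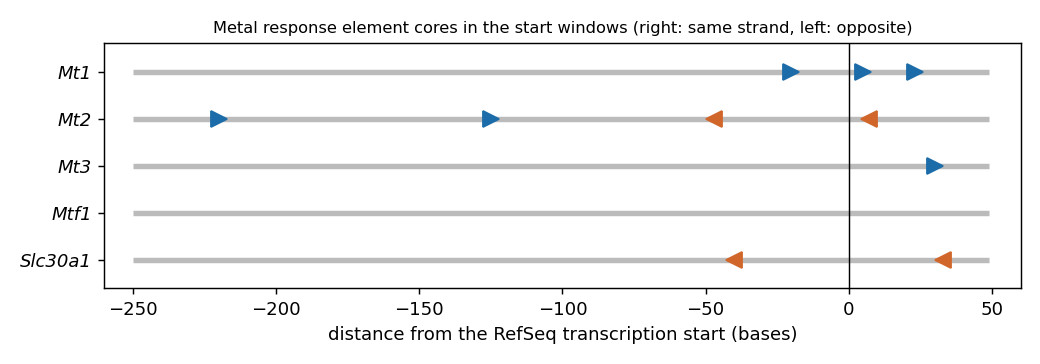
Positions of metal response element cores (TGCACNC or TGCGCNC) in the windows around the RefSeq start of the 5 genes. The x axis gives the distance from the start in bases, each grey line is 1 window, and triangles point right for a core on the gene's strand and left for the opposite strand. *Mt2* has 4 cores and *Mt1* has 3, while the *Mtf1* window has 0.

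The libraries held 7896071 to 12952093 reads on genes, and the floor of 3 reads came to 0.235 to 0.378 CPM (CPM are reads scaled by the authors to a common library size). *Trpa1* goes against the labels: 1 read in sham and 0 reads on every BCAS day in the WT-labelled libraries, against 10 reads in sham and 11, 3 and 7 reads on the BCAS days in the TRPA1-KO-labelled ones. The counts do not show in which exons these few reads lie. Libraries are therefore named by label throughout, and no direction below says which animals had the channel. The 10 markers of oligodendrocytes, the main cell type of the tissue, summed to 15467 and 16975 CPM in sham. On days 7, 10 and 14 of BCAS they summed to 13084, 12970 and 13783 CPM under the WT label. Under the TRPA1-KO label they summed to 12711, 12989 and 14414 CPM, so every BCAS library lay below both shams. Markers of blood cells summed to 1.11 to 202 CPM. Markers of striatal neurons, which lie beneath the corpus callosum, differed with the operation: the 7 genes summed to 1066 and 1432 CPM in sham, to 549, 788 and 710 CPM on days 7, 10 and 14 of BCAS under the WT label and to 636, 1006 and 948 CPM under the TRPA1-KO label. The lowest sum was in the day 7 WT-labelled library.

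All 3 metallothioneins stood far above the regulator and the exporter per kilobase of transcript. In CPM, *Mtf1* (mean 48.8) and *Slc30a1* (mean 44.6) still lay above the median tested gene, at 16.5 to 18.0 CPM in the libraries. Per kilobase of the principal transcript, the mean levels over the 8 libraries were 430 ± 118 CPM for *Mt1*, 273 ± 47.0 CPM for *Mt3* and 243 ± 76.7 CPM for *Mt2*, against 8.51 ± 0.860 CPM for *Slc30a1* and 6.39 ± 0.569 CPM for *Mtf1* (SD, n = 8). The neighbours *Mt3* and *Mt2* lay within each other's spread. Per kilobase of all annotated exons the order of the first 3 was another, with 211 ± 66.7 CPM for *Mt2*, 189 ± 52.0 CPM for *Mt1* and 137 ± 23.6 CPM for *Mt3*, so the rank of *Mt1* and *Mt2* depends on the length used. *Mt4* had 0 reads in all 8 libraries, which at the floor of 3 reads allows a level of up to 0.235 to 0.378 CPM.

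*Mt1*, induced by metals and stress, reached its highest level in the WT-labelled BCAS library of day 7. In the 4 WT-labelled mice its level was 191 CPM in sham, and BCAS mice had 377 CPM on day 7, 258 CPM on day 10 and 226 CPM on day 14. The TRPA1-KO-labelled mice had 236 CPM in sham and 190, 168 and 242 CPM at these times. With the WT label, every BCAS library lay above its own sham and the levels became lower from day 7 to day 14, each day being 1 mouse. With the TRPA1-KO label, days 7 and 10 lay below their own sham and day 14 just above it, so the order of the labels turned over between day 10 and day 14.

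Set against its own sham, *Mt1* stood at 1.97 times on day 7 under the WT label (95% counting interval 1.88 to 2.08) and at 0.804 times under the TRPA1-KO label (0.755 to 0.855). On day 10 the ratios were 1.35 (1.27 to 1.43) and 0.711 (0.667 to 0.758), and on day 14 they were 1.18 (1.12 to 1.26) and 1.02 (0.968 to 1.08). These intervals cover counting error only, since 1 library per label and day gives no spread between mice. Both sham libraries are from day 14. Here and below, time since the operation and stenosis therefore cannot be told apart on days 7 and 10 against sham. The 2 sham libraries themselves differed, with a ratio of the WT label to the TRPA1-KO label of 0.810 (0.765 to 0.857).

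*Mt2*, the neighbour with the same induction, had nearly the same course. Its level was 104 CPM in the WT-labelled sham, and 216 CPM on day 7, 131 CPM on day 10 and 104 CPM on day 14 of BCAS. The TRPA1-KO-labelled sham had 115 CPM, and the BCAS libraries had 105, 91.8 and 128 CPM on those days. Day 7 under the WT label stood at 2.08 times its own sham (1.95 to 2.23), day 10 at 1.27 times (1.17 to 1.38) and day 14 within an interval of 0.925 to 1.09 times. Thus the day 14 WT-labelled library did not differ from its sham beyond counting error, while the day 14 TRPA1-KO-labelled library stood at 1.11 times its sham (1.02 to 1.20). The BCAS groups of both labels overlapped for *Mt1* and for *Mt2*.

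*Mt3*, the brain form, took a different course. With the WT label its level was 119 CPM in sham and 174, 176 and 145 CPM on days 7, 10 and 14 of BCAS. With the TRPA1-KO label it was 141 CPM in sham and 172, 125 and 117 CPM. On day 7 the level of *Mt3* did not differ between the labels beyond counting error, with a ratio of 0.944 to 1.08 (95% counting interval), on the day on which *Mt1* and *Mt2* differed most, by 1.99 (1.88 to 2.11) and 2.05 (1.90 to 2.22). On days 10 and 14 the ratios for *Mt3* were 1.41 (1.30 to 1.53) and 1.24 (interval 1.148 to 1.348). On day 14 *Mt1* stood at 0.937 (0.882 to 0.994) and *Mt2* at 0.814 (0.747 to 0.887), so that on this day *Mt3* differed between the labels in the direction opposite to its neighbours.

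*Mtf1* and *Slc30a1* varied little. *Mtf1* had 53.7 and 52.2 CPM in sham (WT label, then TRPA1-KO label), 42.6, 50.03 and 50.8 CPM under the WT label and 44.8, 52.1 and 43.8 CPM under the TRPA1-KO label on days 7, 10 and 14 of BCAS. Its lowest level was in the library in which *Mt1* and *Mt2* were highest. All 6 BCAS libraries lay below both sham libraries, the closest being day 10 of the TRPA1-KO label at 0.999 times its own sham (0.882 to 1.13). *Slc30a1* had 45.5 and 42.5 CPM in sham, 43.5, 42.6 and 40.4 CPM after BCAS under the WT label and 39.9, 50.1 and 52.4 CPM under the TRPA1-KO label. The exporter was thus highest on days 10 and 14 of the TRPA1-KO label, libraries in which *Mt3* had 125 and 117 CPM.

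**Figure D2:**
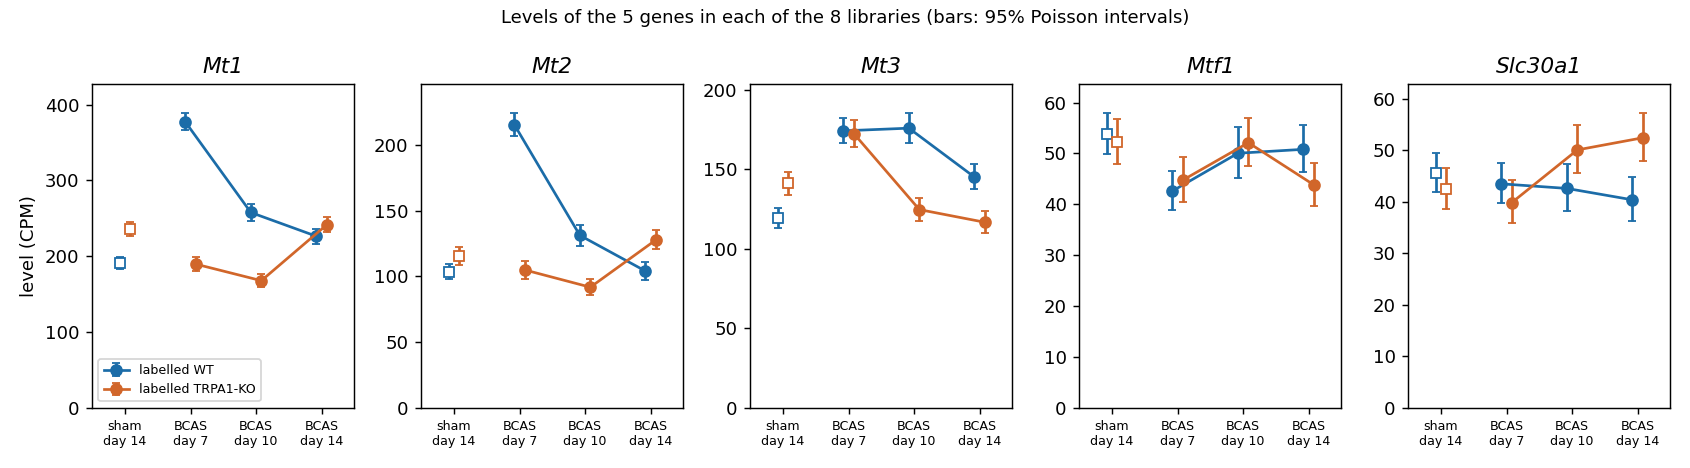
Levels of the 5 genes in each library in CPM (y axis from 0), by operation and day (x axis). Squares are sham and circles BCAS, blue the WT label and orange the TRPA1-KO label; bars are 95% Poisson intervals of the reads, and lines join different mice. *Mt1* and *Mt2* peak in the WT-labelled library of day 7 (377 and 216 CPM), whereas *Mt3* stands at 174 and 172 CPM in the 2 libraries of that day.

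The comparison of the BCAS groups asks whether the labels differ over the 3 days after the operation. Mean levels under the WT and TRPA1-KO labels were 287 ± 79.7 and 199.7 ± 38.0 CPM for *Mt1*, 150 ± 58.2 and 108 ± 18.2 CPM for *Mt2* and 165 ± 17.3 and 138 ± 30.2 CPM for *Mt3* (SD, n = 3 each). *Mtf1* had 47.8 ± 4.53 and 46.9 ± 4.55 CPM and *Slc30a1* 42.2 ± 1.60 and 47.5 ± 6.69 CPM. Thus the mean was higher under the WT label for all 3 metallothioneins, by amounts close to the spread within the groups.

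On the log2(CPM + 1) scale, limma gave *Mt1* a difference of 0.50 (SE 0.18, 95% interval 0.095 to 0.91), which is 1.42-fold, with an adjusted p of 0.98 (Benjamini-Hochberg over all genes tested) and an exact two-sided permutation p of 0.20. The differences were 0.42 (SE 0.22) for *Mt2*, 0.27 (SE 0.14) for *Mt3*, 0.027 (SE 0.10) for *Mtf1* and -0.16 (SE 0.11) for *Slc30a1*, with adjusted p of 0.98 to 0.99 from limma and exact permutation p of 0.20 to 1.0. The median difference of all genes was 0.0010. None of the 5 genes passed an adjusted p of 0.05, which 3 of 18123 genes did (0.0166%). At an unadjusted limma p under 0.05, 1 of the 5 genes was called, *Mt1*, beside 761 of all genes (4.20%). For 0 of the 5 genes did the groups not overlap, beside 9.21% of all genes. Since 3 against 3 libraries cannot give an exact p below 0.10, single genes cannot pass 0.05 by that test, and all p-values measure only the spread between these libraries, in which mice and days are mixed.

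The differences for *Mt1* and *Mt2* were smallest without 1 library and largest without another. Without the day 7 WT-labelled library it was 0.29 for *Mt1* and 0.12 for *Mt2*, and no gene of the 5 had an unadjusted limma p under 0.05. Without the day 14 WT-labelled library it was 0.66 for *Mt1* and 0.65 for *Mt2*, and *Mt1*, *Mt2* and *Mt3* all had such a p. *Mt1* also lost it without the day 7 or the day 10 library of the TRPA1-KO label, and in the former case *Mt3* and *Slc30a1* had it. The difference for *Mt3* was 0.16 without the day 14 and 0.44 without the day 7 library of the TRPA1-KO label. It remained above 0 for all 3 metallothioneins whichever library was left out.

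Against sham, the WT-labelled BCAS libraries had differences of 0.40 (SE 0.20) for *Mt1*, 0.39 (SE 0.24) for *Mt2*, 0.34 (SE 0.15) for *Mt3*, -0.15 (SE 0.11) for *Mtf1* and -0.061 (SE 0.11) for *Slc30a1* in log2(CPM + 1). The adjusted p from limma was 0.91 to 0.98 and the exact permutation p was 0.20 to 0.60, where 0.10 is the smallest that 3 against 2 libraries allow. None of the 5 genes, and none of all 18123 (0%), passed an adjusted p of 0.05 in limma or in edgeR's quasi-likelihood test, whereas DESeq2 called 24 genes, none of the 5 among them. At an unadjusted limma p under 0.05, *Mt3* was called, beside 988 of all genes (5.45%). The groups did not overlap for *Mt3*, with all 3 BCAS libraries above both shams, nor for *Mtf1*, with all 3 below; such groups were seen for 19.9% of all genes. Leaving out the WT-labelled sham library moved the difference for *Mt3* to 0.22, and leaving out the one labelled TRPA1-KO moved it to 0.46. The unadjusted call of *Mt3* was lost without the former, and also without day 7 or day 10 of the WT label or day 10 of the TRPA1-KO label, whereas *Mt1* and *Mt2* joined it without day 14 of the WT label. For *Mt1* the difference was 0.19 without day 7 of the WT label, 0.25 without the WT-labelled sham and 0.55 without day 14, and for *Mt2* it was 0.097 without day 7 and 0.62 without day 14. In the same comparison all 7 striatal neuron markers had the lower level after BCAS, with a median of -0.86. Each had an unadjusted limma p under 0.05 and none an adjusted one. Of the 10 oligodendrocyte markers 1 was higher, 5 of the lower ones had an unadjusted limma p under 0.05 and none an adjusted one, with a median of -0.29. The part of either in the metallothionein levels was not tested.

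The TRPA1-KO-labelled BCAS libraries, set against the same 2 sham libraries, had differences of -0.10 (SE 0.20) for *Mt1*, -0.027 (SE 0.24) for *Mt2*, 0.066 (SE 0.15) for *Mt3*, -0.18 (SE 0.11) for *Mtf1* and 0.098 (SE 0.11) for *Slc30a1*. The 95% interval ran from -0.54 to 0.34 for *Mt1* and from -0.55 to 0.49 for *Mt2*. None of the 5 passed an adjusted p of 0.05, which 1 of all genes did (0.00552%), and none had an unadjusted limma p under 0.05, beside 496 of all genes (2.74%). Without day 7 of the TRPA1-KO label *Slc30a1* had such a p, with a difference of 0.22, and without day 10 *Mtf1* did, with -0.25. *Mtf1* was the 1 member of 5 whose groups did not overlap, beside 18.6% of all genes. As both comparisons use the same sham libraries, their values stand side by side and are not independent. Of the 7 striatal neuron markers, all were lower than in sham here too, 6 of them with an unadjusted limma p under 0.05, with a median of -0.54. Of the 10 oligodendrocyte markers 1 was higher and the median was -0.23. An unadjusted limma p under 0.05 was seen for 3 of the lower ones, and 1 of them also passed the adjusted threshold.

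Within each label, *Mt1*, *Mt2* and *Mt3* lay above their own sham in all 3 WT-labelled BCAS libraries, as did 19.5% of all genes. For *Mt2* day 14 did so only within counting error (0.925 to 1.09 times its sham). With the TRPA1-KO label 0 of the 5 genes did so, beside 23.2% of all genes. The difference between the labels in the change from their own sham was 0.81 for *Mt1* (SE 0.37, 95% interval -0.011 to 1.62), 0.57 for *Mt2* (SE 0.45), 0.51 for *Mt3* (SE 0.28), -0.015 for *Mtf1* (SE 0.20) and -0.26 for *Slc30a1* (SE 0.22) on the log2 scale. No member had an unadjusted limma p under 0.05, beside 271 of all genes (1.50%), and none of all genes (0%) passed an adjusted p of 0.05 in limma, edgeR or DESeq2. *Mt1* reached an unadjusted p under 0.05 in edgeR and in limma with a pseudocount of 0.1, with equalized medians, or without day 7 or day 14 of the WT label or day 14 of the TRPA1-KO label. *Mt2* and *Mt3* reached it without day 14 of the WT label, and *Mt3* also without day 7 of the TRPA1-KO label. Without day 7 of the WT label the difference was 0.59 for *Mt1* and 0.28 for *Mt2*. That test takes the 1 sham library of each label to vary like the BCAS groups. The difference between the 2 sham libraries enters its values directly. In log2, WT label minus TRPA1-KO label, it was -0.30 for *Mt1*, -0.16 for *Mt2* and -0.24 for *Mt3*. For *Mtf1* it was 0.042 and for *Slc30a1* 0.098.

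Over all 4 libraries of each label, sham included, the differences were 0.30 (SE 0.18) for *Mt1*, 0.27 (SE 0.19) for *Mt2*, 0.14 (SE 0.14) for *Mt3*, 0.031 (SE 0.088) for *Mtf1* and -0.094 (SE 0.090) for *Slc30a1*. None of the 5 was called at an adjusted limma p of 0.05, beside 9 of all genes (0.0497%), or at an unadjusted one, beside 714 (3.94%), though *Mt1* had an unadjusted p under 0.05 without the WT-labelled sham library. Without day 7 of the WT label the difference was 0.11 for *Mt1* and 0.040 for *Mt2*. For *Mt3* it was 0.26 without the WT-labelled sham, 0.25 without day 7 of the TRPA1-KO label, 0.079 and 0.074 without days 7 and 10 of the WT label and 0.067 without day 14 of the TRPA1-KO label. The labels overlapped for all 5 genes, while they did not for 2.46% of all genes.

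**Figure D3:**
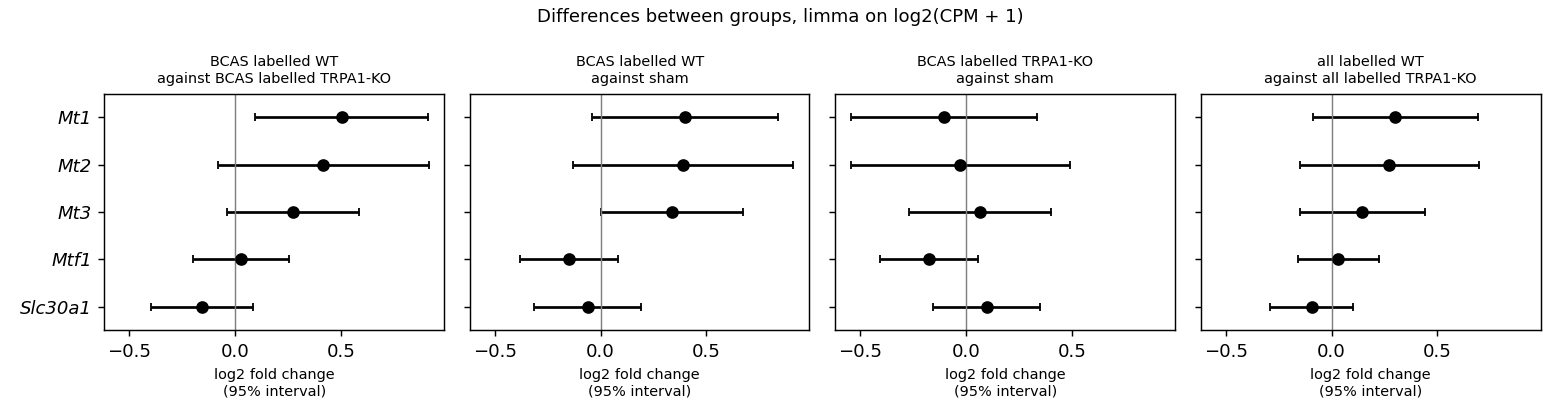
Log2 fold changes of the 5 genes in 4 comparisons on the log2(CPM + 1) scale (x axis), each point the limma estimate with its 95% interval. The interval lies above 0 for *Mt1* between the BCAS groups (0.095 to 0.91) and for *Mt3* against sham under the WT label (0.0038 to 0.68), before adjustment for all genes tested.

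*Mt1* and *Mt2* varied together across the libraries. Their log2 levels had a Pearson r of 0.96 (exact permutation p = 0.00020, 0.0020 adjusted over the 10 pairs of the 5 genes) and a Spearman rho of 0.93 (exact permutation p = 0.0022, adjusted 0.022) over 8 libraries. Without the 2 libraries farthest from the median of *Mt1* the r was 0.84, and without the day 7 WT-labelled library alone it was 0.91. *Mt3* had an r of 0.50 with *Mt1* and of 0.49 with *Mt2*, which came to 0.096 and 0.069 without the 2 farthest libraries. The pair *Mt3* and *Slc30a1* had an r of -0.74 (exact permutation p = 0.036, adjusted 0.18), and none of the pairs other than *Mt1* and *Mt2* passed the adjustment. *Mt2* came 8th among 10743 genes by likeness to *Mt1*, and *Mt1* came 40th by likeness to *Mt2*, whereas *Mt1* came 1241st by likeness to *Mt3*.

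By the same measure, Pearson r of log2 levels over the 8 libraries among genes averaging at least 10 CPM, the 5 genes most like *Mt1* included Gpr137b-ps (r = 0.99), Lhfpl2 (0.97), Inpp5d (0.97) and Adam17 (0.97). Those most like *Mt2* included Rpl10a (0.99), Pon2 (0.98), Cd68 (0.98) and Tpp1 (0.98). Those most like *Mt3* were Chmp2a (0.97), Abhd12 (0.94), Spire2 (0.94), Naxd (0.94) and Id2 (0.93). The values describe 8 libraries that share their scaling and carry no test.

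*Mt1* and *Mt2* were among the more variable genes. Their coefficients of variation over the 8 libraries were 27.5% and 31.5%, above those of 97.5% and 98.1% of 10744 genes averaging at least 10 CPM, whose median was 8.61%. *Mt3*, with 17.2%, lay above 92.2% of these genes. *Mtf1* (8.91%) and *Slc30a1* (10.1%) lay near the middle of all genes. The WT-labelled library of day 7 was the highest of the 8 for *Mt1* and *Mt2*, as it was for 21.9% of all genes.

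Within the metallothionein reads, a measure that the scaling between libraries does not touch, *Mt1* made up 40.6% to 49.7%, *Mt2* 21.9% to 28.1% and *Mt3* 22.7% to 36.9% of the reads of the 3 genes in a library. The total of the 3 was 414 and 492 CPM in sham (WT label, then TRPA1-KO label), 767, 565 and 476 CPM after BCAS under the WT label, and 467, 384 and 486 CPM under the TRPA1-KO label. The share of *Mt3* was lowest on day 7 under the WT label at 22.7% (95% Clopper-Pearson interval 21.8% to 23.6%) and highest on day 7 under the TRPA1-KO label at 36.9% (35.5% to 38.4%). Over the 3 days, the share of *Mt3* was 28.1 ± 4.70% under the WT label and 31.1 ± 6.57% under the TRPA1-KO label (SD, n = 3 each), and the exact permutation p was 0.50. For the shares of *Mt1* and *Mt2* it was 0.50 and 1.0.

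**Figure D4:**
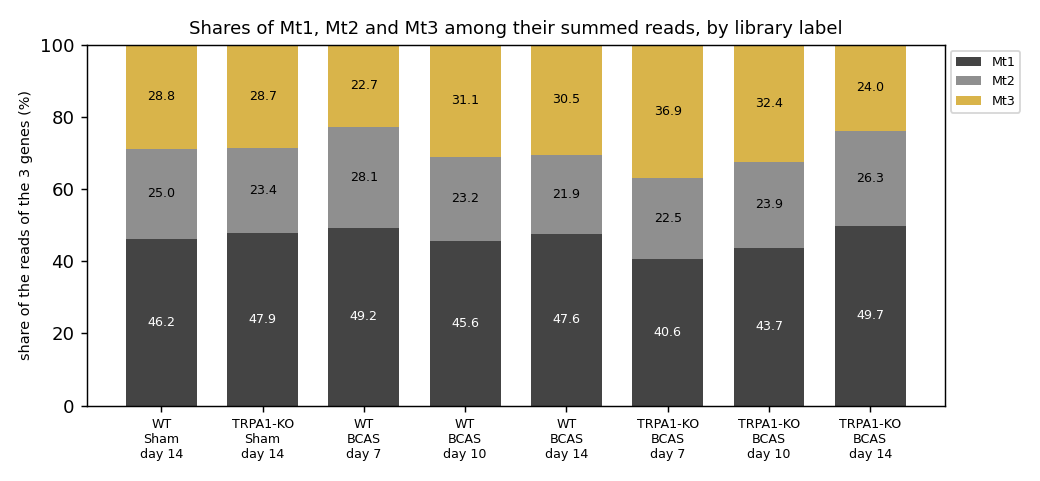
Shares of *Mt1*, *Mt2* and *Mt3* among their summed reads in each library, in percent (y axis), with 1 bar per library. The share of *Mt3* (top segment) is 22.7% on day 7 under the WT label and 36.9% on day 7 under the TRPA1-KO label.

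Few other zinc and copper genes had an unadjusted limma p under 0.05, and none passed the adjustment. Of 9 tested *Slc30a* genes, which move zinc out of the cytosol, 0 had an unadjusted limma p under 0.05 in any of the 5 comparisons, in which 1.50% to 5.45% of all genes did, with a median log2 difference between the BCAS groups of 0.026. Of 14 *Slc39a* genes, which import zinc, 1 had such a p in that comparison, beside 4.20% of all genes, so that 1 gene is close to the share of all genes. This gene, *Slc39a8*, encodes the zinc and manganese importer ZIP8 and had 5.60, 7.18 and 4.06 CPM under the WT label and 3.12, 2.88 and 3.33 CPM under the TRPA1-KO label on days 7, 10 and 14, beside 3.76 and 2.97 CPM in sham. These BCAS groups did not overlap, as for 9.21% of all genes, and the difference was 0.66 (SE 0.22, adjusted p = 0.98 by limma). Against sham it was 0.58 (SE 0.23, adjusted p = 0.89 by limma) under the WT label. Of the 14 genes, 2 had an unadjusted p under 0.05 against sham under the WT label and 1 under the TRPA1-KO label, beside 5.45% and 2.74% of all genes. Against sham, *Slc39a6*, encoding ZIP6, differed by 0.51 (SE 0.11, adjusted p = 0.73 by limma) under the WT label and by 0.32 (SE 0.11, adjusted p = 1 by limma) under the TRPA1-KO label, from 30.2 and 27.6 CPM in sham. Its levels were 45.5, 38.2 and 41.0 CPM and 33.1, 36.7 and 39.2 CPM, so every BCAS library lay above both shams. For 19.9% (WT label) and 18.6% (TRPA1-KO label) of all genes the BCAS and sham groups did not overlap, in either direction.

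Of 7 further genes described as regulated by MTF1, 1 had an unadjusted limma p under 0.05 between the BCAS groups and against sham under either label, beside 4.20%, 5.45% and 2.74% of all genes. This was *Ndrg1*, a gene of myelinating cells among others, which had 188 and 202 CPM in sham, 135, 132 and 156 CPM after BCAS under the WT label and 158, 179 and 169 CPM under the TRPA1-KO label. Its difference from sham was -0.47 (SE 0.091, adjusted p = 0.73 by limma) under the WT label and -0.21 (SE 0.091, adjusted p = 1 by limma) under the TRPA1-KO label, and the BCAS groups differed by -0.26 (SE 0.086, adjusted p = 0.98 by limma). Of 10 genes of copper handling, 0 had an unadjusted p under 0.05 in any comparison, beside the same 1.50% to 5.45% of all genes, with a median of 0.030 between the BCAS groups. No gene of these lists passed an adjusted p of 0.05.

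The summed level of reactive astrocyte markers was highest in the libraries in which *Mt1* and *Mt2* were highest. All 10 of these markers were detected, and their summed level was 270 and 310 CPM in sham, 2041, 1251 and 217 CPM after BCAS under the WT label and 235, 228 and 534 CPM under the TRPA1-KO label. The 3 libraries with the highest marker level, days 7 and 10 under the WT label and day 14 under the TRPA1-KO label, were also the 3 with the highest levels of *Mt1* and *Mt2*, in the same order. For *Mt1* the lowest of these 3 did not differ from the TRPA1-KO-labelled sham beyond counting error, with 242 against 236 CPM (ratio 0.968 to 1.08). For *Mt3* they were not, since day 14 under the TRPA1-KO label held its lowest level. *Gfap*, the intermediate filament of astrocytes, alone had 1415 and 1060 CPM on days 7 and 10 under the WT label and 157 to 427 CPM elsewhere, so that the sum follows mainly this gene. Between the BCAS groups, 1 of the 10 markers had an unadjusted limma p under 0.05 (*Osmr*, a cytokine receptor), beside 4.20% of all genes. Against sham 0 of them did under either label, beside 5.45% (WT label) and 2.74% (TRPA1-KO label) of all genes, and none passed the adjustment. The ranges differed in size: over the 8 libraries the marker sum spanned 217 to 2041 CPM, while *Mt1* spanned 168 to 377 CPM and *Mt2* 91.8 to 216 CPM.

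Markers of microglia and of meningeal fibroblasts were highest in the same 3 libraries and in the same order. The 7 microglial markers, all detected, summed to 893 and 538 CPM on days 7 and 10 under the WT label, to 426 CPM on day 14 under the TRPA1-KO label and to 308 to 334 CPM elsewhere. The 6 fibroblast markers summed to 40.8, 29.4 and 23.0 CPM in these libraries and to 13.8 to 20.5 CPM elsewhere. Between the BCAS groups an unadjusted limma p under 0.05 was seen for 2 of the 7 microglial markers (*Tmem119* and *Csf1r*). It was seen for 0 of the 6 fibroblast markers, beside 4.20% of all genes. Against sham under the WT label 2 microglial (*Aif1* and *Csf1r*) and 1 fibroblast marker (*Col1a2*) had such a p, beside 5.45% of all genes. None of them had an adjusted one. Of 12 genes known to be induced by STAT3, a factor that also acts on metallothionein genes, the sum was 1844, 1222 and 561 CPM in these libraries and 278 to 358 CPM elsewhere. This is no separate set, since 5 of the 12, *Gfap* among them, are also reactive astrocyte markers. The 12 markers of astrocytes in general were highest in the same 3 libraries too, though in another order. They summed to 6217, 6162 and 6471 CPM there and to 5543 to 5951 CPM elsewhere. So were the 6 markers of mural cells, by little, with 223.8, 223.6 and 225.4 CPM there and 201.6 to 220.3 CPM elsewhere. The 6 markers of endothelial cells summed to 180 to 234 CPM. Between the BCAS groups all 6 were higher under the WT label, 2 of them with an unadjusted limma p under 0.05 and none with an adjusted one. The 14 glucocorticoid-induced genes summed to 922 to 1386 CPM, highest in the TRPA1-KO-labelled sham library. The part of reactive astrocytes, microglia or any other cell type in the levels of *Mt1* and *Mt2* was not tested.

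**Figure D5:**
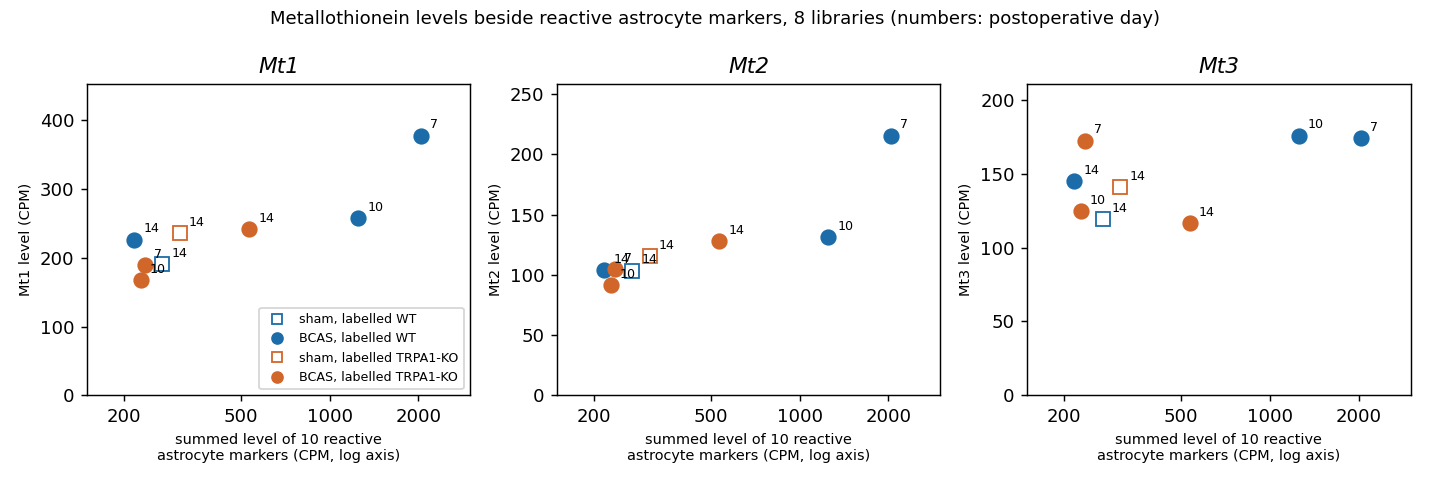
Levels of *Mt1*, *Mt2* and *Mt3* in CPM (y axis from 0) against the summed level of 10 reactive astrocyte markers in CPM (log x axis) in the 8 libraries; squares are sham, circles BCAS, blue the WT label, orange the TRPA1-KO label, and numbers the day. The 3 libraries to the right, at 534, 1251 and 2041 CPM, are the 3 highest for *Mt1* and *Mt2*, whereas *Mt3* ranges from 117 to 176 CPM among them. For *Mt1* the library at 534 CPM lies within counting error of the TRPA1-KO-labelled sham.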

How the data were processed

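Per the labels, polyA RNA was used, and the submitters' processing notes name HISAT2, featureCounts of Subread and edgeR with mm10 (GRCm38). Annotation, strand setting and gene filter are not given in the sources used here. The deposited signal is CPM as the authors scaled it with edgeR's effective library sizes, on a linear scale (sums 966202 to 1022161). Division by the smallest positive value gave whole numbers for 100% of values (tolerance 0.01), which recovered the reads.

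The main test was limma (version 3.58.1, R version 4.3.3, trend, two-sided, Benjamini-Hochberg) on log2(CPM + 1) of the genes averaging 0.1 CPM or more, a scale that understates the change of low genes. The design had foreseen log2 or normalized values, and its test was kept. The BCAS groups were compared on 6 libraries, and comparisons with sham used all 8. Exact permutation tests were run in scipy version 1.17.1. Intervals of reads, ratios and shares are at 95% and cover counting error only. Tried beside these were another pseudocount (0.1), filter (none, or a mean of 1 CPM) and scaling (equalized medians), limma's robust option, edgeR (version 4.0.16) and DESeq2 (version 1.42.0) on the reads, the sham of the same label, the day as a block, and the omission of each library. Shares per kilobase of transcript were added after seeing the data. Scripts were tested on simulated data.

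Members and lists were chosen with earlier results of these data known. Named genes are the 5 members and *Mt4*, zinc, MTF1 and copper genes with a limma p under 0.05, and the 5 genes most like each metallothionein by r. One of the latter is not reported here. *Trpa1*, *Gfap*, *Osmr*, *Tmem119*, *Csf1r*, *Aif1*, *Col1a2* and the antisense genes were named after their values were seen. All 5 members matched RefSeq sequences.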

Additional observations from a re-analysis of the deposited data

How the results depend on the processing

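Of 380 values of the 5 genes under alternatives, 364 kept their direction and stayed short of an adjusted p of 0.05, and the other 16 turned direction, all of them for differences near 0. With the sham of the same label, *Mt3* stood at -0.054 in the TRPA1-KO-labelled BCAS libraries (log2, 0.066 as reported). With 1 library left out, that difference ran from -0.10 to 0.19, for *Mt1* from -0.26 to 0.047 and for *Mt2* from -0.15 to 0.084. For *Mtf1*, leaving out 1 library gave -0.018 to 0.11 between the BCAS groups, -0.012 to 0.098 over all libraries and -0.061 to 0.065 for the difference in change. The share of *Mt2* differed by -1.65 to 1.45 percentage points between the BCAS groups and by -0.64 to 1.43 over all libraries. Between the BCAS groups, leaving out 1 library gave 325 (without day 10 of the TRPA1-KO label) to 1846 (without day 14 of the WT label) genes at an unadjusted p under 0.05, against 761, and 1 to 29 at an adjusted one, against 3, where DESeq2 gave 17, the robust option 5, no filter 1 and 1 fit of all libraries 0. For the WT-labelled libraries against sham the unadjusted count ran from 357 to 2013 (988 with all included) and the adjusted one from 0 to 45, and for the TRPA1-KO-labelled ones from 191 to 735 (496) and from 0 to 1, with 254 and 4 in DESeq2. For the difference in change it was 629 without a filter, 98 in DESeq2 and 161 to 723 with 1 library left out (271). Over all libraries, 6 to 14 genes passed the adjusted threshold with 1 left out and 5 with the robust option (9). The causes were not tested. At an unadjusted p, *Mt1* between the BCAS groups was called under 9 of 15 alternatives, and *Mt3* against sham under the WT label under 9 of 16. Libraries of the same day did not vary alike: their deviations from their group means correlated at -0.10, 0.0050 and -0.26 over 10744 genes. With 1 library per label and day, an effect shared by the libraries of a day was not tested. With the day as a replicate block the BCAS groups differed by 0.50 for *Mt1* and 0.27 for *Mt3*, both at an unadjusted p under 0.05, and 632 genes had an unadjusted p under 0.05 and 1 an adjusted one. Each label and day is 1 mouse and each label has 1 sham library, so label, day and mouse cannot be told apart within a day. Reads limit little here, since the 5 genes stand far above the floor of 3 reads.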
